A study of Mus musculus with 8 samples.

Results

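NF-κB subunits and IκB proteins are the core parts of a transcription factor system that macrophages use to switch on inflammatory genes. The 10 genes described here were taken by symbol from the 53735 rows of the deposited count tables, and all 10 were found and were among the 14418 genes tested. Of them, 5 encode the DNA-binding subunits (Nfkb1, Nfkb2, Rel, Rela and Relb), 3 encode classical IκB proteins (Nfkbia, Nfkbib and Nfkbie), and 2 encode nuclear IκB proteins (Nfkbiz and Bcl3).

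Bulk RNA-seq was done on 8 libraries of bone marrow derived macrophages (BMDMs), cells grown from mouse bone marrow for 7 days. The donors were male C57BL/6J mice of 6 months that received angiotensin II (Ang II), a peptide that raises blood pressure and drives aneurysm formation, from a minipump for 7 days. Every mouse lacked Apoe, so this background was shared by both groups. WT libraries were Mkl1+/+, Apoe-/- and KO libraries were Mkl1-/-, Apoe-/-, a global knockout of a coactivator of serum response factor, with littermates or offspring of sibling mates as controls. The work was run as 2 experiments, and each held 2 WT and 2 KO libraries: WT 1, WT 2, KO 5 and KO 6 in experiment 1, and WT 3, WT 4, KO 7 and KO 8 in experiment 2. The labels do not say whether each library came from a separate mouse, so p-values measure the spread between these libraries. All libraries analysed here came from mice that received Ang II.

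In resting cells the subunits, as dimers, are held by classical IκB proteins, and signals through the IκB kinases lead to degradation of IκB and entry of the dimers into the nucleus. Nfkb1 and Nfkb2 encode precursors (p105 and p100) that act like IκB before they are processed to DNA-binding forms. NF-κB dimers activate several of their own genes, Nfkbia among them, which makes IκBα a feedback inhibitor. Nfkbiz (IκBζ) and Bcl3 work inside the nucleus with DNA-bound dimers and can raise or lower the transcription of selected genes. The comparison addressed how these transcripts differed between KO and WT macrophages.

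The κB consensus, the sequence bound by NF-κB dimers, was searched on both strands in promoter windows from 250 bases before to 50 bases after RefSeq transcription starts on GRCm38. Windows were matched by symbol for 7 of the 10 genes, all but Nfkb1, Relb and Nfkbiz. The consensus was found in 5 of these 7 genes (Nfkb2, Rel, Nfkbia, Nfkbie and Bcl3), against 5.14% of the 27025 genes with a window and 4.51% of the 32851 windows. It was not found in Rela or Nfkbib. The CArG box, the sequence bound by serum response factor, was in 0 of the 7 genes and in 1.81% of all genes with a window. These sites are shown because the promoters carry the sequence bound by dimers of the subunits. Among the genes with a match, Nfkb2 and Rel encode such subunits, and Nfkbia, Nfkbie and Bcl3 encode IκB proteins. Capitals mark the match, and each line runs 5′ to 3′ on the strand of the gene.
Nfkbia: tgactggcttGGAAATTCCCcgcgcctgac
Nfkbie: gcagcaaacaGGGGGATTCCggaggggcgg
Rel: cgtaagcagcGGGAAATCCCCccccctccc
Nfkb2, 39 bases before a start: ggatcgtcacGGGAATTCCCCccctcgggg
Nfkb2, 11 bases before the same start: ccccctcggggggccgaaaGGGGCTTTCCc

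The Nfkbia match began 29 bases before the start and its line is chr12:55492657-55492686, minus strand. The Nfkbie match began 106 bases before the start, and its line is chr17:45555584-45555613, plus strand. In Rel the match began 92 bases before the start, at chr11:23771042-23771071 on the minus strand. The Nfkb2 lines are chr19:46304688-46304717 and chr19:46304707-46304736, plus strand. In Rel and in the Nfkb2 line that is 39 bases from a start, the 11 capitals are 2 matches on opposite strands that overlap. Nfkb2 has 3 start sites in the table, and the later starts had further matches beginning 236 and 225 bases upstream. In Bcl3 the match began 3 bases after the start. A match is a description of letters, and binding was not measured.

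**Figure D1:**
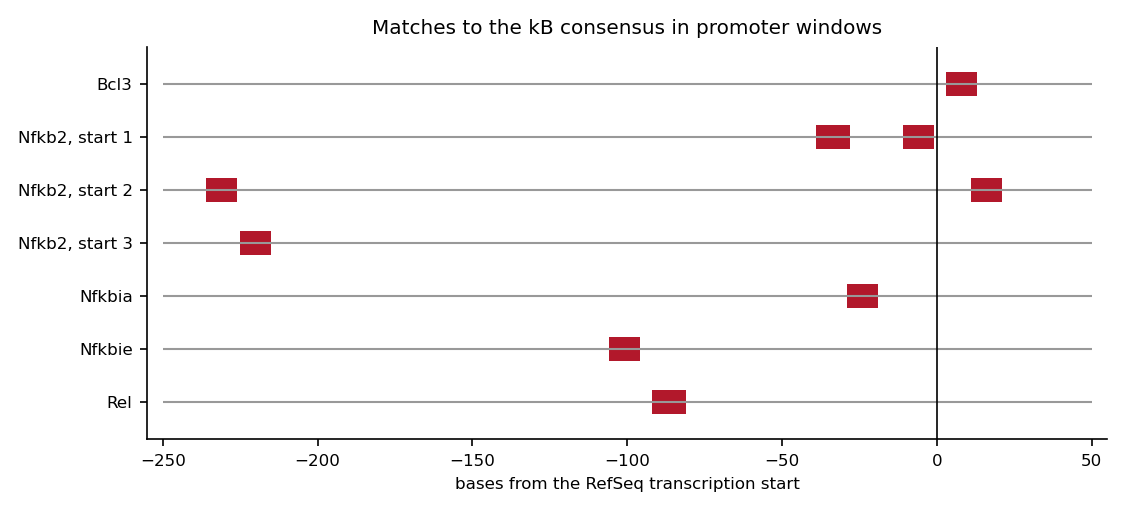
Matches to the κB consensus (red boxes) in the promoter windows that hold any, by distance in bases from the RefSeq transcription start (vertical line at 0). Nfkbia, Nfkbie, Rel and every Nfkb2 start have a match upstream, and the Bcl3 match lies after the start.

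The files are counts of reads per gene, and the total lay between 33977799 and 41584540 per library. Levels are given as CPM, the counts of a gene scaled to the size of the library, after TMM scaling. Mkl1, the targeted gene, was at 25.6, 27.1, 26.8 and 29.6 CPM in WT 1 to 4 and at 19.5, 20.9, 14.6 and 10.4 CPM in KO 5 to 8. The highest KO value was under the lowest WT value, yet none was near 0 (exact permutation test over 70 arrangements, two-sided p = 0.0286). Exchanging labels within experiments gave an exact permutation p of 0.0556, the smallest that 36 arrangements give, and the adjusted p over both experiments was 0.0574. Mkl1 was lower within experiment 1 (log2 -0.39, adjusted p = 0.00381) and within experiment 2 (-1.17, adjusted p = 0.0218). Where the deletion lies relative to the counted reads is not given in the sources used here. Of the 10 macrophage markers, all were tested, and their sum was 16005 to 36484 CPM, led by Lyz2. In KO of experiment 1, 3 of them were lower and 6 higher, against 28.1% lower and 27.0% higher among all genes tested. In experiment 2, 2 were lower and 2 higher, against 8.29% and 7.52%. Those that passed in both experiments, named after their values were seen, did not move together. Adgre1 (log2 -2.11 and 0.91) and Itgam (-1.03 and 1.34) were lower in experiment 1 and higher in experiment 2. Csf1r was higher in experiment 1 (0.82) and lower in experiment 2 (-1.28). The part of these shifts in the results was not tested. The 9 fibroblast markers, led by Col1a2, summed to 237 CPM in KO 5 and 304 CPM in KO 6, against 3.19 to 19.8 CPM in the other 6 libraries. Summed neutrophil markers stayed at or below 13.7 CPM, led by Mmp8, lymphocyte markers at or below 0.135 CPM, led by Ms4a1, and dendritic cell markers at or below 47.7 CPM, at the highest nearly all of it Itgax. In bulk libraries, fewer cells of a type and less RNA per cell cannot be told apart. By all genes, KO of experiment 2 was closest to WT of experiment 1, with an SD of log2 differences of 0.41 over 14418 genes, while the other 5 pairs of groups gave 0.84 to 0.98. Whether KO libraries had been swapped from 1 experiment to the other could not be settled from these files, and a swap would change every fold within an experiment and every difference between the experiments. The experiment labels were used as given.

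Most of the genes were lower in KO than in WT in each experiment, by different amounts and with different exceptions. In experiment 1, 8 of 10 were lower and 0 were higher (edgeR quasi-likelihood test, Benjamini-Hochberg adjusted p under 0.05). The background was high there, since 28.1% of all tested genes were lower. In experiment 2, 8 of 10 were lower and 0 higher, against a background of 8.29%. The exceptions were Rela and Nfkbie in experiment 1 and Nfkbiz and Bcl3 in experiment 2. Thus 6 of 10 passed as lower in both, as did 2.25% of all genes tested. That count was 3 without KO 8 (Nfkb2, Relb and Nfkbia) and 4 with upper-quartile scaling (Rel, Relb, Nfkbia and Nfkbib). The median log2 fold change of the 10 genes was -0.45 in experiment 1 and -1.22 in experiment 2, and that of all tested genes was 0.01 in each. Across both experiments, all 4 KO libraries were below all 4 WT libraries for 6 of 10 (Nfkb1, Nfkb2, Rel, Relb, Nfkbia and Nfkbiz), and for 6.25% of all genes.

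With upper-quartile scaling the split of all calls in experiment 1 moved from 4056 lower and 3892 higher to 3207 lower and 4776 higher, and the median of all genes was 0.11. Of the 8 lower calls 6 then passed, without Nfkb1 and Nfkb2. Leaving out KO 8 from experiment 2 left 4 lower calls (Nfkb2, Relb, Nfkbia and Nfkbie), while calls over all genes fell from 1195 to 110 lower and from 1084 to 122 higher.

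**Figure D2:**
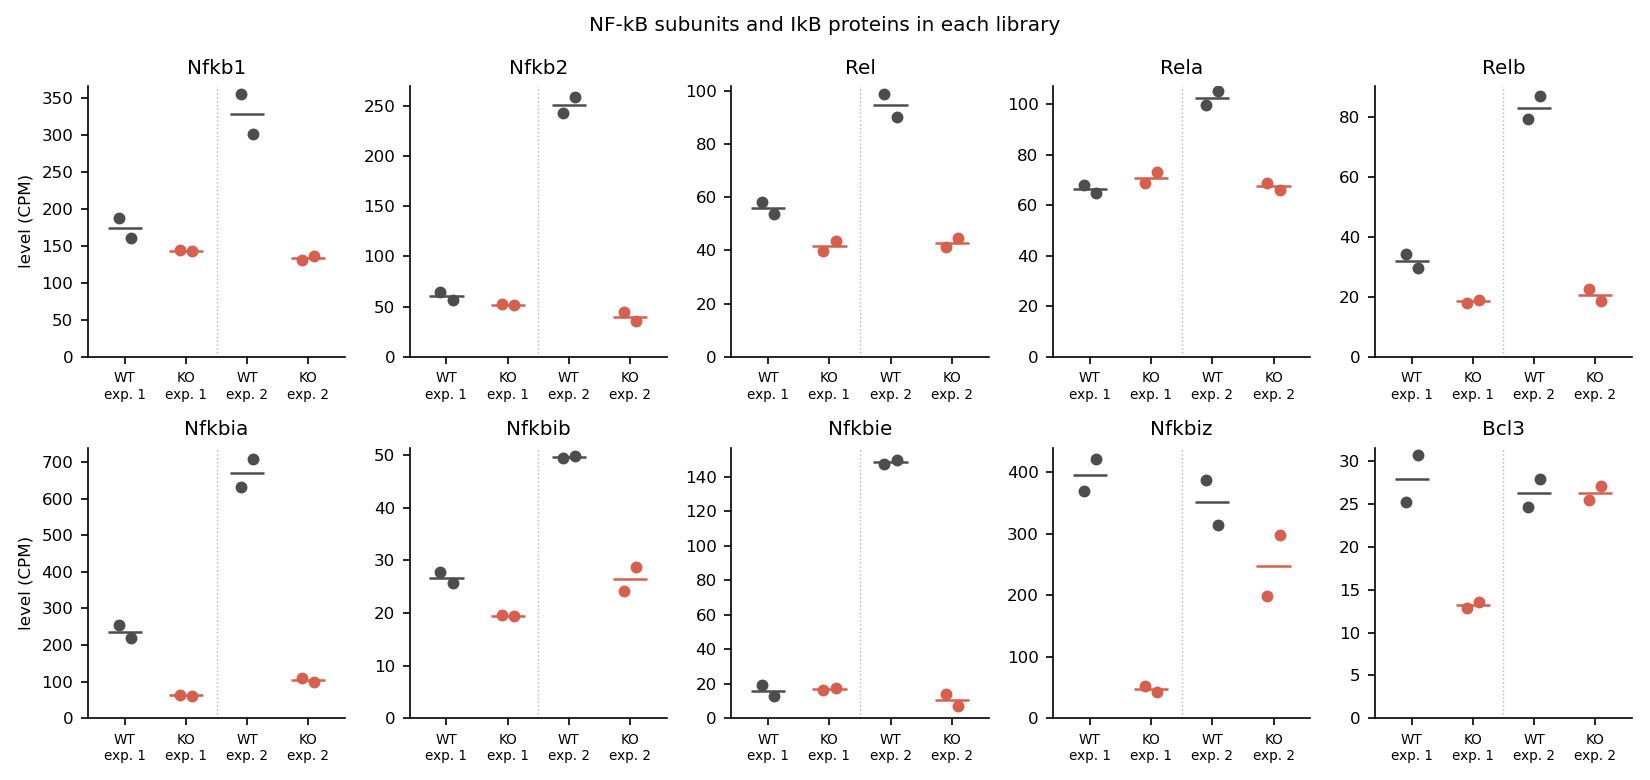
Level in CPM of each of the 10 genes in every library. Points are libraries, gray for WT and red for KO, bars are means of 2 libraries, and the dotted line separates experiment 1 from experiment 2. In 8 panels the WT libraries of experiment 2 are the highest, whereas in the Nfkbiz and Bcl3 panels the KO libraries of experiment 1 are the lowest.

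Among the subunits, Nfkb1 (chromosome 3, 135584655 to 135691547, minus strand, GENCODE M21 on GRCm38), the precursor of p50, had the highest level per kilobase of exon in all 4 groups. It was at 188 and 161 CPM in WT and 144 and 142 CPM in KO of experiment 1, and at 355 and 301 CPM in WT and 131 and 136 CPM in KO of experiment 2. All KO libraries lay within a narrow range, and the WT libraries of experiment 2 stood above those of experiment 1. The log2 fold change was -0.30 (SE 0.08, adjusted p = 0.0139) in experiment 1 and -1.30 (SE 0.14, adjusted p = 0.00953) in experiment 2. The smaller of these shrank to -0.20 with upper-quartile scaling (adjusted p = 0.0598) and to -0.18 without WT 1 (0.0837). It stayed near -0.29 but was not called in a fit of all 4 groups (0.0738) or without KO 6 (0.0522). Without KO 8, the experiment 2 value was -1.32 (adjusted p = 0.0635).

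Nfkb2 (chromosome 19, 46304320 to 46312385, plus strand) encodes p100, which in its processed form partners RelB in the noncanonical pathway. Its level was 64.3 and 56.6 CPM in WT and 52.4 and 51.7 CPM in KO of experiment 1. In experiment 2 it was 243 and 259 CPM in WT against 44.99 and 35.2 CPM in KO. The groups did not overlap in either experiment, but the gap was narrow in the former and wide in the latter. KO was 6.26-fold lower in experiment 2 (log2 -2.65, SE 0.16, adjusted p = 0.00422) and 1.17-fold lower in experiment 1 (log2 -0.23, SE 0.07, adjusted p = 0.0306). The experiment 1 value shrank to -0.13 with upper-quartile scaling (adjusted p = 0.17) and without WT 1 (0.241). It stayed between -0.24 and -0.22 but was not called with DESeq2 (0.0519), in the fit of 4 groups (0.199), or without KO 5 (0.0621) or KO 6 (0.0752).

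Relb (chromosome 7, 19606217 to 19629438, minus strand), the partner of processed p100, was at 34.3 and 29.7 CPM in WT and 18.0 and 19.0 CPM in KO of experiment 1. It was at 79.1 and 86.8 CPM in WT and 22.5 and 18.6 CPM in KO of experiment 2. Every KO library was below every WT library. The log2 fold change was -0.81 (SE 0.09, adjusted p = 0.000177) in experiment 1 and -2.01 (SE 0.14, adjusted p = 0.00461) in experiment 2.

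Rel (chromosome 11, 23736847 to 23770970, minus strand) encodes c-Rel, a subunit with a transactivation domain that is prominent in blood cells. It had 58.2 and 53.5 CPM in WT and 39.8 and 43.5 CPM in KO of experiment 1, and 98.8 and 90.2 CPM in WT and 41.3 and 44.5 CPM in KO of experiment 2. KO levels were alike in both experiments, and the WT levels were not. The log2 fold change was -0.43 (SE 0.07, adjusted p = 0.00152) in experiment 1 and -1.14 (SE 0.11, adjusted p = 0.00829) in experiment 2, the latter -1.19 (adjusted p = 0.0537) without KO 8.

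Rela (chromosome 19, 5637483 to 5648130, plus strand) encodes p65, the transactivating partner of p50. Its level was 67.8 and 64.8 CPM in WT and 68.7 and 73.0 CPM in KO of experiment 1, a log2 difference of 0.08 (SE 0.06, adjusted p = 0.293) that passed with upper-quartile scaling (0.18, adjusted p = 0.0331). In experiment 2 it had 99.7 and 105 CPM in WT and 68.9 and 66.0 CPM in KO, with a log2 fold change of -0.60 (SE 0.10, adjusted p = 0.0239). The latter did not pass when any of the 4 libraries was left out (adjusted p between 0.0696 and 0.102). The WT libraries of experiment 2 were high and the other 6 libraries lay between 64.8 and 73.0 CPM.

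Nfkbia (chromosome 12, 55489410 to 55492647, minus strand), which encodes IκBα, was the classical IκB gene with the highest level per kilobase of exon. It had 254 and 218 CPM in WT and 64.9 and 61.7 CPM in KO of experiment 1. In experiment 2 it had 632 and 707 CPM in WT and 109 and 100.5 CPM in KO. Every KO library was below every WT library by a wide gap. KO was 3.76-fold lower in experiment 1 (log2 -1.91, SE 0.08, adjusted p = 2.84e-06) and 6.39-fold lower in experiment 2 (log2 -2.67, SE 0.14, adjusted p = 0.00327).

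Nfkbib (chromosome 7, 28758251 to 28767512, minus strand) encodes IκBβ, a slower inhibitor of the same dimers. It had 27.8 and 25.6 CPM in WT and 19.6 and 19.4 CPM in KO of experiment 1, and 49.4 and 49.9 CPM in WT and 24.3 and 28.8 CPM in KO of experiment 2. The groups were apart within each experiment, although KO 8 was above both WT libraries of experiment 1. The log2 fold change was -0.47 (SE 0.08, adjusted p = 0.00156) in experiment 1 and -0.90 (SE 0.13, adjusted p = 0.0162) in experiment 2, the latter not passing without KO 7 (adjusted p = 0.0507) or KO 8 (0.0543).

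Nfkbie (chromosome 17, 45555703 to 45563169, plus strand), which encodes IκBε, ranged from 7.05 to 149.7 CPM. It had 19.4 and 12.8 CPM in WT and 16.5 and 17.8 CPM in KO of experiment 1. It had 147 and 149.7 CPM in WT and 13.98 and 7.05 CPM in KO of experiment 2. Only the WT libraries of experiment 2 were high, and the remaining 6 overlapped by genotype. KO was 14.1-fold lower in experiment 2 (log2 -3.82, SE 0.35, adjusted p = 0.00886). In experiment 1 the log2 difference was 0.08 (SE 0.20, adjusted p = 0.775), and it was 0.41 (adjusted p = 0.0319) without WT 1 and -0.19 (adjusted p = 0.226) without WT 2.

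Nfkbiz and Bcl3 followed another pattern. Nfkbiz (chromosome 16, 55811375 to 55838899, minus strand) encodes IκBζ, a nuclear cofactor of p50 that is needed for late inflammatory genes such as Il6. It had 369 and 421 CPM in WT and 52.2 and 43.1 CPM in KO of experiment 1, and 388 and 315 CPM in WT and 198 and 297 CPM in KO of experiment 2. KO was low in experiment 1, and in experiment 2 the KO libraries were unlike each other and below both WT libraries. It was 8.36-fold lower in KO of experiment 1 (log2 -3.06, SE 0.12, adjusted p = 7.18e-06), and the experiment 2 difference was -0.51 (SE 0.23, adjusted p = 0.198). The latter was -0.24 without KO 7 and -0.83 without KO 8 (adjusted p = 0.449 and 0.118).

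Bcl3 (chromosome 7, 19808462 to 19822770, minus strand) encodes a nuclear IκB that binds p50 and p52 homodimers. It had 25.2 and 30.7 CPM in WT and 12.9 and 13.6 CPM in KO of experiment 1, and 24.7 and 27.9 CPM in WT and 25.5 and 27.1 CPM in KO of experiment 2. Only KO of experiment 1 was low. The log2 fold change was -1.09 (SE 0.11, adjusted p = 0.000102) in experiment 1, and in experiment 2 the log2 difference was 0.00 (SE 0.12, adjusted p = 0.996). Exons of Bcl3, Nfkb2 and Nfkbib overlap genes on the opposite strand (Gm16175, AC114539.1 with Psd, and Ccer2), and the strand setting of the counting is not stated, so reads of the overlaps cannot be assigned with certainty. The part of fibroblast marker signal in the KO values of experiment 1 was not tested.

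**Figure D3:**
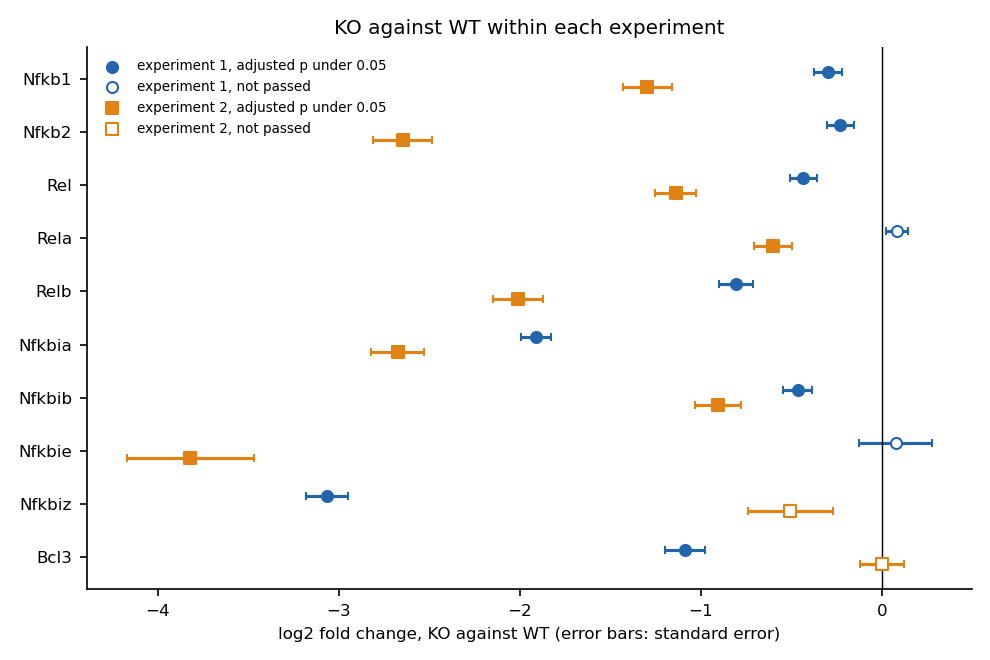
Log2 fold change of KO against WT for each gene in experiment 1 (blue circles) and experiment 2 (orange squares), with the standard error. Filled symbols passed an adjusted p under 0.05. The differences of Nfkb2 (-0.23 and -2.65) and Nfkbie (0.08 and -3.82) were larger in experiment 2, whereas those of Nfkbiz (-3.06 and -0.51) and Bcl3 (-1.09 and 0.00) were larger in experiment 1.

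The KO effect was next compared between the experiments, in a fit with an interaction of genotype and experiment. It differed for all 10 genes, against 41.6% of all genes tested. For 8 genes the effect was more negative in experiment 2 (background 20.6%), and for Nfkbiz and Bcl3 it was more positive (background 21.0%). The difference was -3.91 on the log2 scale for Nfkbie (SE 0.43, adjusted p = 0.000752), -2.43 for Nfkb2 (SE 0.18, adjusted p = 0.000209) and -1.22 for Relb (SE 0.17, adjusted p = 0.0016). It was 2.55 for Nfkbiz (SE 0.29, adjusted p = 0.000858) and 1.08 for Bcl3 (SE 0.17, adjusted p = 0.00257). Nfkbib had the smallest difference, -0.45 (SE 0.14, adjusted p = 0.0372), and it did not pass with DESeq2 (0.0585), without the filter on counts (0.0849) or in 7 of the 8 fits without a library (adjusted p between 0.0724 and 0.133).

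Which genotype moved between the experiments was then read from the same libraries, in a fit of the 4 groups. WT of experiment 2 was higher than WT of experiment 1 for 8 genes, all but Nfkbiz and Bcl3 (background 15.7% higher), from 1.54-fold for Rela (adjusted p = 0.00136) to 9.20-fold for Nfkbie (adjusted p = 0.000672). Nfkbiz (log2 -0.17, adjusted p = 0.558) and Bcl3 (log2 -0.09, adjusted p = 0.606) did not pass. Between the KO groups, 4 genes were higher in experiment 2 (background 17.5%), namely Nfkbiz by 5.19-fold (adjusted p = 0.000754), Bcl3 by 1.99-fold (adjusted p = 0.00191), Nfkbia by 1.66-fold (adjusted p = 0.00358) and Nfkbib by 1.36-fold (adjusted p = 0.0151). For Nfkb1, Rel, Rela and Relb the log2 difference between the KO groups was between -0.10 and 0.15 and did not pass, nor did that of Nfkbie (-0.71, SE 0.30, adjusted p = 0.111). With upper-quartile scaling the KO split over all genes moved from 2200 lower and 2522 higher to 2745 lower and 1936 higher, and Nfkb2 was then lower (log2 -0.45, adjusted p = 0.0311, against -0.38 and 0.0538). These contrasts share libraries with the comparisons above, and whatever differed between the 2 experiments cannot be told apart. Summed dendritic cell markers were 32.5 and 47.7 CPM in WT of experiment 2, 20.1 and 30.02 CPM in KO of experiment 1 and at most 4.06 CPM elsewhere. Nearly all of the higher sums was Itgax, at 30.9 and 46.7 CPM in WT of experiment 2 and 19.2 and 29.3 CPM in KO of experiment 1. The 6 other markers stayed below 1 CPM in every library. The part of Itgax in these differences was not tested.

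In a fit of genotype over both experiments with the experiment as an added term, 4 of 10 were lower (background 3.41%) and 0 were higher. These were Nfkbia (log2 -2.29, SE 0.18, adjusted p = 0.0019), Relb (-1.40, SE 0.26, 0.025), Rel (-0.78, SE 0.15, 0.0313) and Nfkbib (-0.68, SE 0.12, 0.0206). The difference between experiments enters the residual spread of this fit, and the mean effect in a fit that kept the interaction was lower for all 10, where 2438 of all 14418 genes were lower against 491. The count was 1 without KO 5, WT 1 or WT 4, 2 without KO 7 or WT 3, and 0 without the experiment term or after KO libraries were exchanged between the experiments. Lower calls over all genes fell along with it, to 132 without KO 5, 117 without WT 1, 237 without WT 4, 169 without KO 7, 282 without WT 3, 1 without the experiment term and 14 after the exchange. With upper-quartile scaling the split over all genes was 367 lower and 754 higher, against 491 and 536.

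Levels of different genes were compared per kilobase of exon (CPM per kb, with exons from GENCODE M21). Nfkbia ranked highest in all 4 groups, from 40.1 CPM per kb in KO of experiment 1 to 424 CPM per kb in WT of experiment 2. Nfkbiz was next in WT of experiment 1 (95.5 CPM per kb) and in both groups of experiment 2, but only the fifth in KO of experiment 1 (11.5 CPM per kb), where its libraries overlapped those of Nfkb2. Nfkbie was last of 10 in WT of experiment 1 (6.61 CPM per kb) and in KO of experiment 2 (4.32), and the fourth in WT of experiment 2 (60.9 CPM per kb). Neighbors whose libraries overlapped were Bcl3, Relb and Nfkb2 as well as Rel and Nfkbie in WT of experiment 1, Bcl3 and Nfkbie in KO of experiment 1, Nfkbiz and Nfkb1, Nfkbie and Nfkb2, and Rela and Relb in WT of experiment 2, and Nfkbia and Nfkbiz, Nfkb2 and Relb, and Rel and Nfkbie in KO of experiment 2.

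The make-up of the subunit pool, summed over the 5 subunits per kb, was chosen after the levels were seen and is given without a test. The sum was 96.8 and 109 CPM per kb in WT of experiment 1, 224 and 229 in WT of experiment 2, and 80.1 to 88.1 in the 4 KO libraries. Rela held 29.4% to 30.5% of the sum in the KO libraries, 22.9% and 24.6% in WT of experiment 1, and 16.0% and 17.2% in WT of experiment 2. Relb held 9.44% to 12.2% in KO and 13.9% to 17.5% in WT. Nfkb2 held 25.1% and 27.3% in WT of experiment 2 and 10.4% to 14.4% elsewhere. The KO pool was thus smaller and held a greater share of Rela transcripts than either WT pool.

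Relative to that pool, the 3 classical IκB genes summed to a ratio of 1.61 and 1.67 in WT of experiment 1, 2.11 and 2.37 in WT of experiment 2, 0.631 and 0.664 in KO of experiment 1, and 1.00 and 1.03 in KO of experiment 2. The KO libraries were lower than the WT libraries in each experiment, and Nfkbia made up most of the ratio in every library. These are ratios of transcripts, and no protein was measured.

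**Figure D4:**
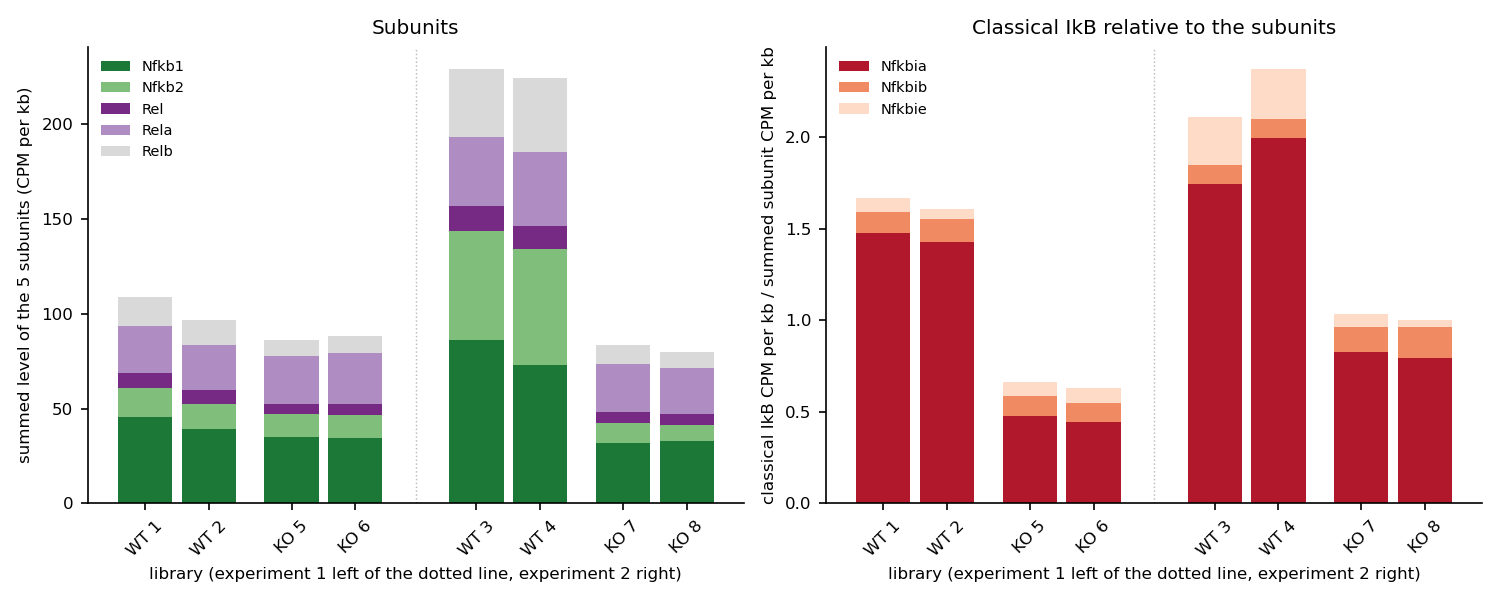
Left, level of the 5 subunit genes stacked in CPM per kb for each library. Right, the 3 classical IκB genes stacked as a ratio to the summed subunits. The subunit sum is 224 to 229 CPM per kb in WT 3 and WT 4 and at most 109 elsewhere, and the IκB ratio is at most 1.03 in KO and at least 1.61 in WT.

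Over the 8 libraries, log2 CPM of the 8 genes other than Nfkbiz and Bcl3 correlated with each other at r between 0.77 (Rela and Nfkbia) and 0.99 (Nfkb2 and Nfkbie among the highest). Nfkbiz and Bcl3 correlated with each other at r = 0.96, and with the 8 at r between 0.15 (Bcl3 and Nfkbie) and 0.75 (Nfkbiz and Nfkbia). The points share the genotypes and experiments, so r describes 4 groups of libraries. Among 9062 other genes whose log2 CPM averaged 3 or more, the pattern most like Nfkb1 was that of Snx20 (r = 0.997), and those most like Nfkb2, Rel, Rela and Relb were Orai2 (0.998), Abracl (0.994), Rbx1 (0.991) and Nck1 (0.99). For Nfkbia, Nfkbib and Nfkbie these were Creb3 (0.994), Appl1 (0.995) and Gpr132 (0.996). For Nfkbiz and Bcl3 they were Snx4 (0.995) and Clpb (0.991). Their ranges could be far narrower, as Creb3 lay between 55.9 and 80.2 CPM.

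Genes that act upstream of IκB were described from lists. Of 11 kinases and adaptors of the IκB kinase (IKK) step, 6 were lower and 2 higher in KO of experiment 1, and 1 was lower and 1 higher in experiment 2, with medians of -0.33 and -0.14. Background counts over all genes were 28.1% lower and 27.0% higher in experiment 1, and 8.29% and 7.52% in experiment 2. Map3k14, which encodes the kinase NIK that starts p100 processing, rose in KO in both experiments, by 0.74 (SE 0.08, adjusted p = 0.000182) and 0.90 (SE 0.16, adjusted p = 0.0242) on the log2 scale. It had 15.4 and 16.3 CPM in WT against 25.8 and 27.4 CPM in KO of experiment 1, and 9.84 and 11.1 CPM against 17.7 and 21.2 CPM in experiment 2. Every KO library was above every WT library. Ikbke, an IKK-related kinase, fell in both (log2 -1.25, SE 0.08, adjusted p = 1.11e-05, and -1.08, SE 0.22, adjusted p = 0.0356). The other higher gene of experiment 1, named after its value was seen, was Tab1 (log2 0.64, adjusted p = 0.000268). Of the IKK complex itself, also named after values were seen, Chuk (log2 -0.33, adjusted p = 0.00156) and Ikbkg (-0.58, adjusted p = 0.000544) were lower in experiment 1 and Ikbkb did not pass (0.10, adjusted p = 0.166). In experiment 2 none of these passed, with log2 differences of -0.15 for Chuk, -0.14 for Ikbkg and -0.32 for Ikbkb, although Ikbkb was lower in the fit of 4 groups. In the fit of 4 groups, 4 were lower and 2 higher in experiment 2, where calls over all genes rose from 1195 to 2418 lower and from 1084 to 2481 higher.

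The list for ubiquitin transfer and processing of IκB and p100 had 16 genes. In KO of experiment 1, 7 were lower and 3 higher (backgrounds 28.1% and 27.0%). In experiment 2, 10 were lower and 0 higher (backgrounds 8.29% and 7.52%). The medians were -0.07 and -0.48. Fbxw11, a substrate receptor of the ligase that marks IκB, had a log2 fold change of -0.71 (SE 0.06, adjusted p = 2.51e-05) in experiment 1 and a difference of 0.23 in experiment 2 (adjusted p = 0.282). Ube2d3, a ubiquitin-conjugating enzyme, had -0.62 (adjusted p = 0.000122) and -0.10 (adjusted p = 0.644). Birc3, which encodes a ligase that holds NIK low, fell by 1.92 on the log2 scale in experiment 2 (SE 0.17, adjusted p = 0.00633) and by 1.07 in experiment 1 (adjusted p = 0.000737). Traf2, an adaptor of the same complex, fell by 1.16 in experiment 2 (SE 0.13, adjusted p = 0.0108) and by 0.31 in experiment 1 (adjusted p = 0.0093). The genes higher in experiment 1, named after their values were seen, were Rnf31 (0.64), Rbck1 (0.56) and Traf6 (0.66), and all of them were lower in experiment 2 (-0.98, -0.58 and -0.80).

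Of the 2 other IκB-like genes, Nfkbid, a nuclear IκB, was at 29.03 and 29.3 CPM in WT of experiment 2 and between 9.62 and 13.3 CPM elsewhere. Its log2 fold change was -1.51 (SE 0.13, adjusted p = 0.00631) in experiment 2 and its difference was 0.27 (adjusted p = 0.0639) in experiment 1. Nfkbil1 did not pass in either (log2 -0.18 and -0.35).

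Of 13 modulators of the pathway, 9 were lower and 2 higher in KO of experiment 1 (backgrounds 28.1% and 27.0%). In experiment 2, 6 were lower and 0 higher (backgrounds 8.29% and 7.52%). The medians were -0.60 and -0.39. Tnfaip3, a ubiquitin-editing inhibitor and an NF-κB target, had 134 and 112 CPM in WT and 15.2 and 17.9 CPM in KO of experiment 1, and 342 and 421 CPM in WT and 76.0 and 46.7 CPM in KO of experiment 2. All KO libraries were below all WT libraries, with log2 fold changes of -2.90 (adjusted p = 1.17e-05) and -2.64 (SE 0.28, adjusted p = 0.0107). Tnip1 and Tnip3, which bind ubiquitin or its editors, were lower in both, with log2 fold changes of -1.68 (adjusted p = 9.01e-07) and -0.92 (adjusted p = 0.0259) for Tnip1 and -2.45 (adjusted p = 2.82e-06) and -1.98 (adjusted p = 0.00448) for Tnip3. Zc3h12a, an RNase that cuts inflammatory mRNAs, Nfkbiz mRNA among them, had log2 fold changes of -1.79 (adjusted p = 1.67e-06) and -0.74 (adjusted p = 0.02). The higher genes of experiment 1, named after their values were seen, were Cyld (0.18) and Otud7b (0.45), and only Otud7b was higher in the fit of 4 groups.

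Of 22 TLR and cytokine products often used as readouts of NF-κB, 16 were lower and 2 higher in KO of experiment 1. Backgrounds there were 28.1% and 27.0%. In experiment 2, 15 were lower and 0 higher (backgrounds 8.29% and 7.52%). The medians were -2.94 and -2.46. The list was chosen with results of these libraries known and is not independent evidence of its direction. Ccl3 and Ccl4, chemokines, had log2 fold changes of -2.63 (SE 0.07, adjusted p = 3.13e-07) and -2.38 (SE 0.07, adjusted p = 4.55e-07) in experiment 1 and of -1.83 (adjusted p = 0.00886) and -1.04 (adjusted p = 0.0445) in experiment 2. Cxcl2, a neutrophil chemokine, had 156 and 122 CPM in WT and 1.92 and 2.62 CPM in KO of experiment 1, and 547 and 632 CPM in WT and 25.0 and 24.7 CPM in KO of experiment 2 (log2 -5.94 and -4.57, adjusted p = 2.65e-05 and 0.0027). Icam1, an adhesion molecule, had 1077 and 1073 CPM in WT of experiment 2 and between 79.7 and 184 CPM elsewhere, and fell by 3.70 (SE 0.15, adjusted p = 0.00322) in experiment 2 and by 0.95 in experiment 1 (adjusted p = 2.87e-05). The higher genes of experiment 1, named after their values were seen, were Irf1 (1.05) and Ccl5 (2.38), whose experiment 2 values were -3.08 (adjusted p = 0.00327) and -3.42 (adjusted p = 0.0797), and in the fit of 4 groups Irf1 alone was higher.

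**Figure D5:**
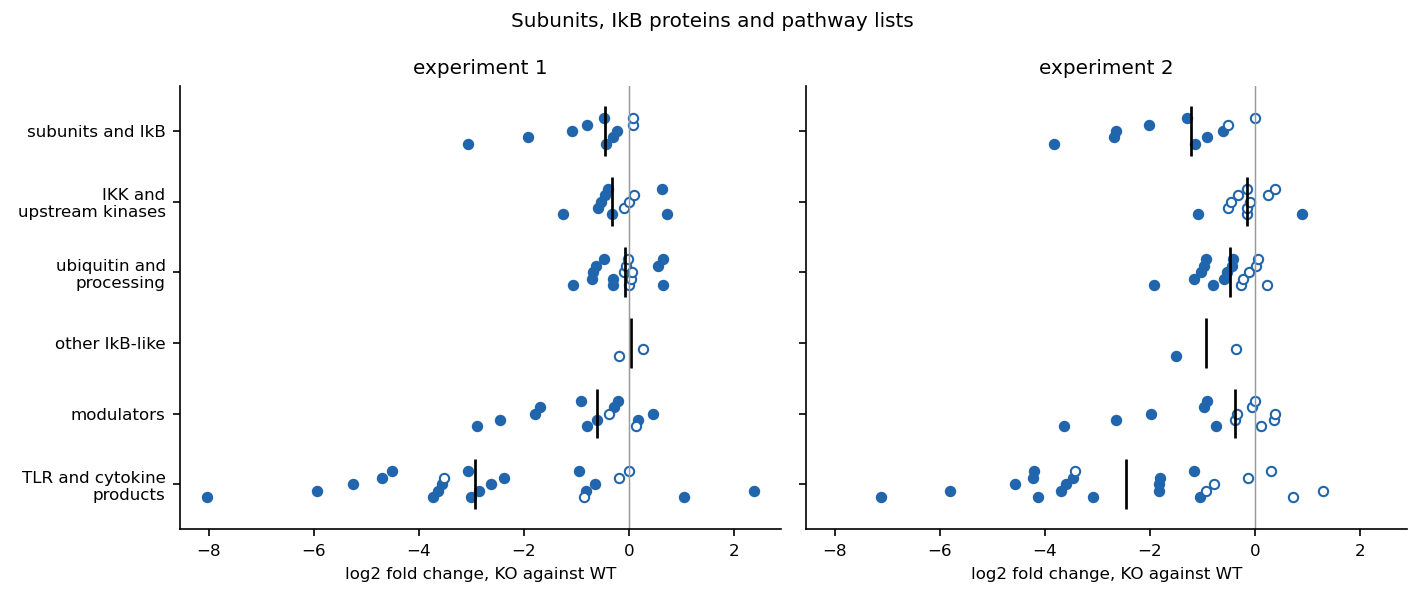
Log2 fold change of KO against WT for the 10 genes and for each list of pathway genes, experiment 1 on the left and experiment 2 on the right. Points are genes, filled where the adjusted p was under 0.05, and black bars are medians. The medians of the TLR and cytokine products were -2.94 and -2.46, and those of the IKK list were -0.33 and -0.14.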

How the data were processed

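RNA of BMDMs from Ang II-treated Apoe-/- mice, 4 WT and 4 KO libraries, was sequenced from stranded mRNA libraries in 2 experiments. The authors deposited raw counts per gene, and per the labels' processing notes STAR 2.7.0f, Subread 1.6.4 with featureCounts, DESeq2 1.22.1 and GRCm38 were named, without the annotation release or strand setting. The deposited normalized values, a signal, equal the counts divided by a size factor between 0.891 and 1.09 set within an experiment, and were used only to check the unit. Counts were joined by symbol, and 0 columns were left unassigned.

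Counts were tested with edgeR 4.0.16 in R 4.3.3 (TMM, filterByExpr by genotype over 8 libraries, robust quasi-likelihood F test) within each experiment, as the study design states, and in fits of interaction, of 4 groups and of genotype plus experiment. P-values were adjusted by Benjamini-Hochberg over 14418 genes, with a threshold of 0.05. The SE was obtained as the absolute log2 fold change over the root of the F statistic. Log2 CPM used a prior count of 2. The fits were tested on simulated data. Where some genes were changed, false calls exceeded the share that the adjusted threshold allows. This held within each experiment, for the interaction and for genotype plus experiment. The lowest count of any of the 10 genes in a library was 294. In some pairs of libraries the spread of a gene was below its counting error. Pairs of replicate libraries differed beyond counting noise, so none was a copy. Chi-square over genes was 15.9 (WT) and 12.0 (KO) for each gene in experiment 1, and 67.4 (WT) and 80.4 (KO) in experiment 2.

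Alternatives were DESeq2 1.42.0, limma-voom (limma 3.58.1), upper-quartile scaling, 2 other count filters (1 count in total, or 10 in every library), other model terms, stricter thresholds (an adjusted p under 0.01, or a 2-fold change), and each library left out. The exact permutation test used scipy 1.17.1. Exon lengths and coordinates came from GENCODE M21 on GRCm38, and promoter sequences from RefSeq on GRCm38.p6. Figures were drawn with matplotlib 3.10.9. The 10 genes, the pathway and marker lists and the tests were chosen with earlier results of these data known. The text names all 10 genes, Mkl1, the 2 genes of each pathway list with the smallest p in each experiment, the gene most correlated with each of the 10, and the most abundant gene of each marker list, and says where others were added.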

Additional observations from a re-analysis of the deposited data

Results flagged for a closer look

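The KO effect differed between the experiments for each of the 10 genes and for Mkl1, by the edgeR test of the interaction at an adjusted p under 0.05, as it did for 41.6% of all genes tested. The effect of experiment 2 minus that of experiment 1, on the log2 scale, was -1.01 for Nfkb1, -2.43 for Nfkb2, -0.72 for Rel, -0.70 for Rela and -1.22 for Relb. It was -0.78 for Nfkbia, -0.45 for Nfkbib and -3.91 for Nfkbie, and 2.55 for Nfkbiz and 1.08 for Bcl3. For Mkl1, the targeted gene, it was -0.79 (adjusted p = 0.0238). Fibroblast markers were high in the KO libraries of experiment 1, at 237 and 304 CPM in sum against at most 19.8 CPM elsewhere, and their part in these differences was not tested.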

How the results depend on the processing

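For single genes 477 of 560 values kept their direction and their side of the threshold, 67 lost the call, 12 gained one and 4 changed sign. The sign changes concerned Nfkbie in experiment 1 (between -0.19 and 0.41 on the log2 scale without a library) and Bcl3 in experiment 2 (between -0.088 and 0.092 without a library, and -0.0019 with DESeq2). No paired analysis was possible because WT and KO libraries share no replicate number.

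Leaving out a library gave 6 to 8 genes lower and 0 to 1 higher in experiment 1, 4 to 7 lower in experiment 2, 1 to 4 lower over both, and 3 to 6 lower in each of both experiments, where a lone library was assumed to vary like the others. A change of at least 2-fold left 3 lower in experiment 1, 2 over both and 1 lower in each of both experiments, and an adjusted p under 0.01 left 1 over both and 3 lower in each. Within each experiment, lower calls over all genes also fell in every fit without a library. Their share under the stricter thresholds is not given. The alternatives for the count lower in each experiment were added after the data were seen. Over both experiments, 8 were lower with DESeq2, 10 for the mean effect with the interaction kept, and 0 without the experiment term or with the KO libraries exchanged. Lower calls over all genes, 491 in the fit reported, were 1256, 2438, 1 and 14 in these fits. Upper-quartile scaling made 1 gene (Rela) higher in experiment 1 and 1 gene (Nfkb2) lower in KO of experiment 2 against experiment 1. In the fit of 4 groups, which called 2418 genes lower and 2481 higher in experiment 2 over all genes, the IKK list had 4 lower and 2 higher in experiment 2, the modulators 1 higher in experiment 1 and 2 higher in experiment 2, and the TLR and cytokine products 1 higher in experiment 1. The cause of these moves was not tested.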
